A study of Homo sapiens with 2 samples.

Results

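The genes described here are 56 genes whose products enter, drive and complete mitosis: kinases and cyclins, checkpoint and anaphase proteins, kinesins, kinetochore subunits and spindle proteins. They were taken by symbol from a table of 24462 gene symbols, and all 56 were found. For a symbol on several rows the row with most reads was kept, which touched KIFC1 alone. RNA came from 2 libraries. The hESC library holds undifferentiated H9, a human embryonic stem cell line, and the NPC library holds neural precursors differentiated from H9 by co-culture with MS5, a mouse stromal line used as feeder. The labels name no genetic change and no other agent in either group, and whether feeder cells were removed before lysis is not given in these labels. With 1 library in each group there is no test between the conditions and no p-value, and every interval below covers counting error only.

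Cells enter mitosis when the kinase CDK1, bound to cyclin A or B, is freed from inhibitory phosphates by CDC25 phosphatases, which WEE1 opposes. Aurora and Polo kinases and kinesin motors then build the spindle and attach chromosomes at kinetochores. The spindle checkpoint holds back the anaphase-promoting complex until attachment is complete, after which securin and the cyclins are destroyed and the cell divides. Many of these genes are transcribed in a common wave late in the cell cycle, through CCAAT boxes bound by NF-Y and the cell cycle genes homology region (CHR) bound by the MuvB complex. Pluripotent cells cycle fast with a short first gap phase, and neural precursors divide in the ventricular zone of the developing brain.

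The promoter letters of a few members are shown because the CDC25 and B-type cyclin genes parted within their families, and CDC25A and NUF2 had the lowest and the highest ratio of all members. Each stretch is the 130 bases before a transcript start listed by RefSeq on GRCh38.p14, a later build than the hg19 named for the counts. Capitals mark CHR letters (TTTGAA or TTCGAA, on either strand) and CCAAT boxes (CCAAT on either strand, so ATTGG when reversed). The stretches lie at chr3:48188418-48188547 on the minus strand (CDC25A), chr20:3796180-3796309 on the plus strand (CDC25B), chr5:138331805-138331934 on the minus strand (CDC25C), chr5:69167020-69167149 on the plus strand (CCNB1), chr15:59105016-59105145 on the plus strand (CCNB2) and chr1:163321824-163321953 on the plus strand (NUF2). CDC25B and CDC25C have 4 listed starts each, and the first one with most kinds of match was printed, while the other 4 genes have 1 start each, so the presence of a motif is not compared between these genes.
CDC25A: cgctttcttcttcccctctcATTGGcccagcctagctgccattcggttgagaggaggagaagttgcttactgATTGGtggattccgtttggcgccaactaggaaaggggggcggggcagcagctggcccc
CDC25B: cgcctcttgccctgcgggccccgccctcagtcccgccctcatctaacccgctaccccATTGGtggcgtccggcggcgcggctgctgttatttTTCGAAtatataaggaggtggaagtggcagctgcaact
CDC25C: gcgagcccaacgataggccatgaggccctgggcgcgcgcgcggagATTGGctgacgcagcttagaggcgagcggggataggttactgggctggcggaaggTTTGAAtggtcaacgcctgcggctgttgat
CCNB1: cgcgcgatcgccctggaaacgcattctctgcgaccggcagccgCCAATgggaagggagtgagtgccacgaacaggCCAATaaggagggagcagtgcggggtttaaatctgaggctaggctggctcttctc
CCNB2: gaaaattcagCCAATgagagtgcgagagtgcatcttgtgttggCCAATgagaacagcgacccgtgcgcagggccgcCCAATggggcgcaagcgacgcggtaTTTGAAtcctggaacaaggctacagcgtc
NUF2: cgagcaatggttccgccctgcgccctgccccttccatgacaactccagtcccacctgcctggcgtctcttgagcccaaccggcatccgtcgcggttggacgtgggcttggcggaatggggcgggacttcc

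CCNB2 held 3 CCAAT boxes in this stretch, 120, 87 and 54 bases before the start, and a CHR 29 bases before it. CCNB1 held CCAAT boxes at 87 and 55 bases and no CHR of these letters. CDC25C had a reversed CCAAT box 85 bases and a CHR 30 bases before its start, and CDC25B had them at 73 and 38 bases. CDC25A held reversed CCAAT boxes at 110 and 58 bases and no CHR of these letters. NUF2 had neither motif before its start and a CHR 17 bases after it, outside the printed stretch.

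The motifs were counted over windows from 250 bases before to 50 bases after each start, and a gene was counted when any of its starts had a match. The table held 48 of the 56 members. A CHR was found in 37 of them (77.1%) and a CCAAT box in 40 (83.3%), and 31 (64.6%) had both in 1 window. Among all 27305 genes of the table the shares were 19.5%, 39.7% and 7.85%, and among 10039 genes measured in these libraries they were 15.9%, 43.6% and 6.73%. CHR and CCAAT letters can overlap by 1 base at most. A CHR was present in 6 of 10 matched members called lower and in 30 of 37 that were not called. These are matches of letters, with no binding measured.

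Of the 56 genes 42 had ratios within 2-fold, and the others were mainly lower in the NPC library. Levels are in CPM, a gene's reads scaled to a common library depth, after scaling by trimmed means of M-values (TMM), which sets the bulk of genes to a common level, and a pair of values gives hESC first and NPC second. Calls rest on the 95% counting interval of a ratio, whose bound nearer to no change had to reach 2-fold, and a gene counted as measured at 5 CPM or more in either library. In the NPC library 13 members were called lower and 1 higher, and 42 were not called. All 56 had at least 5 CPM in both libraries, so each could have been called either way. In bulk RNA, fewer cells in mitosis and less RNA per cell cannot be told apart.

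The share of members called lower, 23.2%, lay near that of all 13535 measured genes, 19.8%, and is no result about these genes. The share called higher was 1.79% against 19.6%. Among 10804 genes with 5 CPM in both libraries, 17.2% were lower and 12.8% higher. The median log2 ratio, NPC over hESC, was -0.37 for the members and -0.09 for all measured genes, and the members' standard deviation was 0.80 against 2.02 (1.21 for genes at 5 CPM in both). Scaling by the library total instead raises every log2 ratio by 0.36. The members' median was then -0.01 against 0.31 for all genes, 3 members were lower (5.36%, against 13.2% of all genes) and 6 higher (10.7%, against 27.0%).

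**Figure D1:**
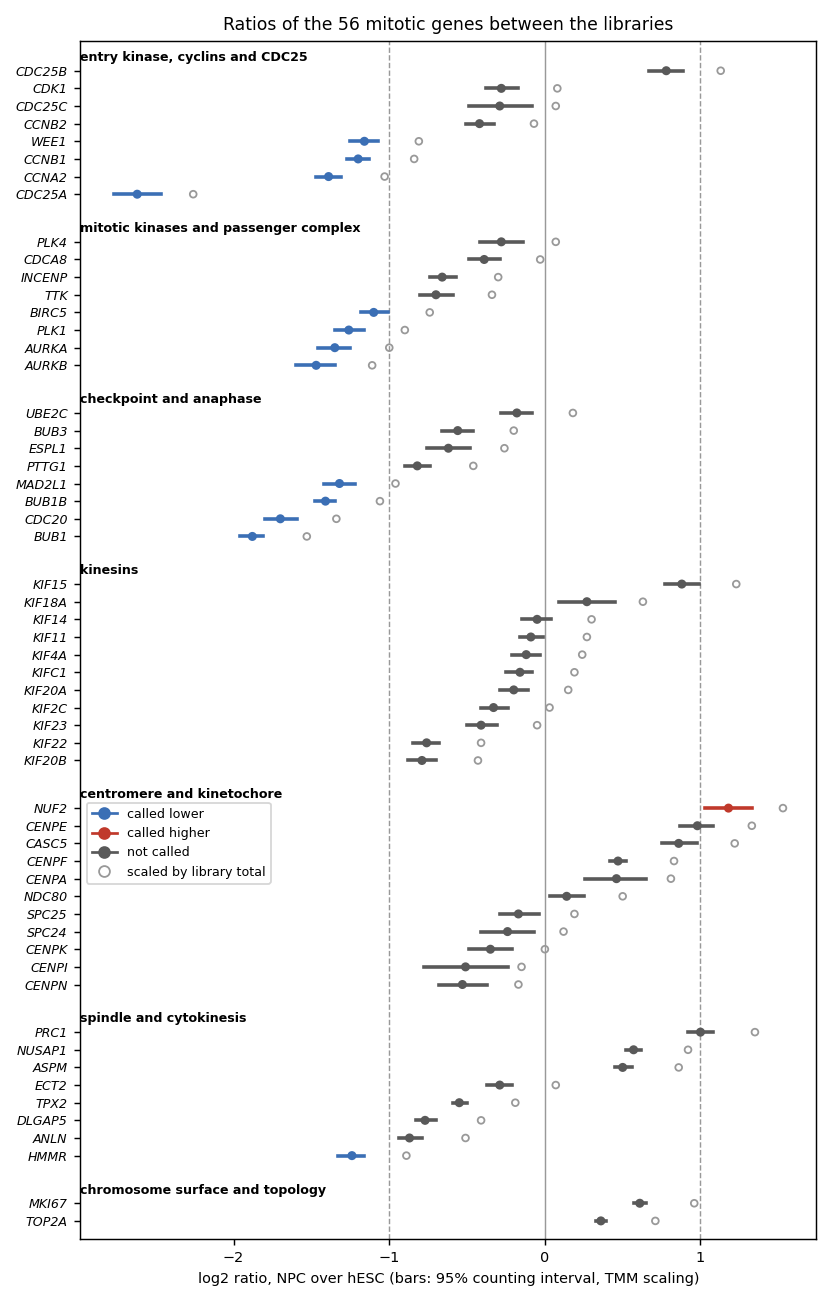
Log2 ratios, NPC over hESC, of the 56 genes by role, with TMM scaling (filled points, bars are 95% counting intervals) and with the library total (open points); dashed lines mark 2-fold. Blue marks the 13 genes called lower and red NUF2, the 1 called higher; 12 of the 13 are in the upper 3 groups.

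The calls of lower fell mainly on regulators. The first 3 roles below hold 24 genes for mitotic entry, kinases, the checkpoint and anaphase, and the other 32 genes encode motors, kinetochore, spindle and chromosome proteins. Among the 24 regulators 12 were lower and none higher, with a median log2 ratio of -0.96, and 23 of 24 ratios were below 0. Of the 32 structural genes 1 was lower and 1 higher, with a median of -0.14. Scaled by library total, the counts were 3 lower and 1 higher against 0 lower and 5 higher, and the medians were -0.60 and 0.22. Of all measured genes 19.8% were lower and 19.6% higher with TMM, and 13.2% and 27.0% by library total. On that last scale the 3 of 24 regulators called lower lie near the share of all genes. The roles were joined into these sets after the values were seen, and the difference was not tested.

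The members took 0.668% of hESC reads (95% Wilson interval 0.664 to 0.671) and 0.732% of NPC reads (0.729 to 0.736). Their summed level with TMM was 7557 CPM and 6473 CPM, so the direction of the sum over all members depends on the scale. MKI67, TOP2A and CENPF together took 0.130% of hESC reads and 0.229% of NPC reads, or 1474 and 2024 CPM. The other 53 members took 0.538% of hESC reads (0.534 to 0.541) and 0.503% of NPC reads (0.501 to 0.506). With TMM these 53 summed to 6083 CPM and 4449 CPM, so their sum was lower in the NPC library on both scales. The 3 genes set apart are not a role of the list, and each had a higher level in the NPC library. Leaving them out therefore moves the sum of the others towards lower, and that sum is no separate result about the 53.

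Per kb of the longest transcript, TOP2A, PTTG1, TPX2 and NUSAP1 were among the 5 highest members in both libraries. In the hESC library PTTG1 came first with 137 CPM per kb, before TOP2A (127), TPX2 (117), CCNB1 (108) and NUSAP1 (106). In the NPC library the order was TOP2A (162), NUSAP1 (157), TPX2 (80.3), PTTG1 (77.9) and UBE2C (72.4). CENPI was last in both, at 3.84 and 2.70 CPM per kb. BUB1 went from rank 11 to rank 36 and CDC25A from rank 31 to rank 54, while NUF2 went from rank 44 to 16 and PRC1 from 37 to 8. Across the 56 genes the levels per kb of the libraries had a Spearman's rho of 0.737, a description over genes that share 2 libraries and 1 set of lengths.

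**Figure D2:**
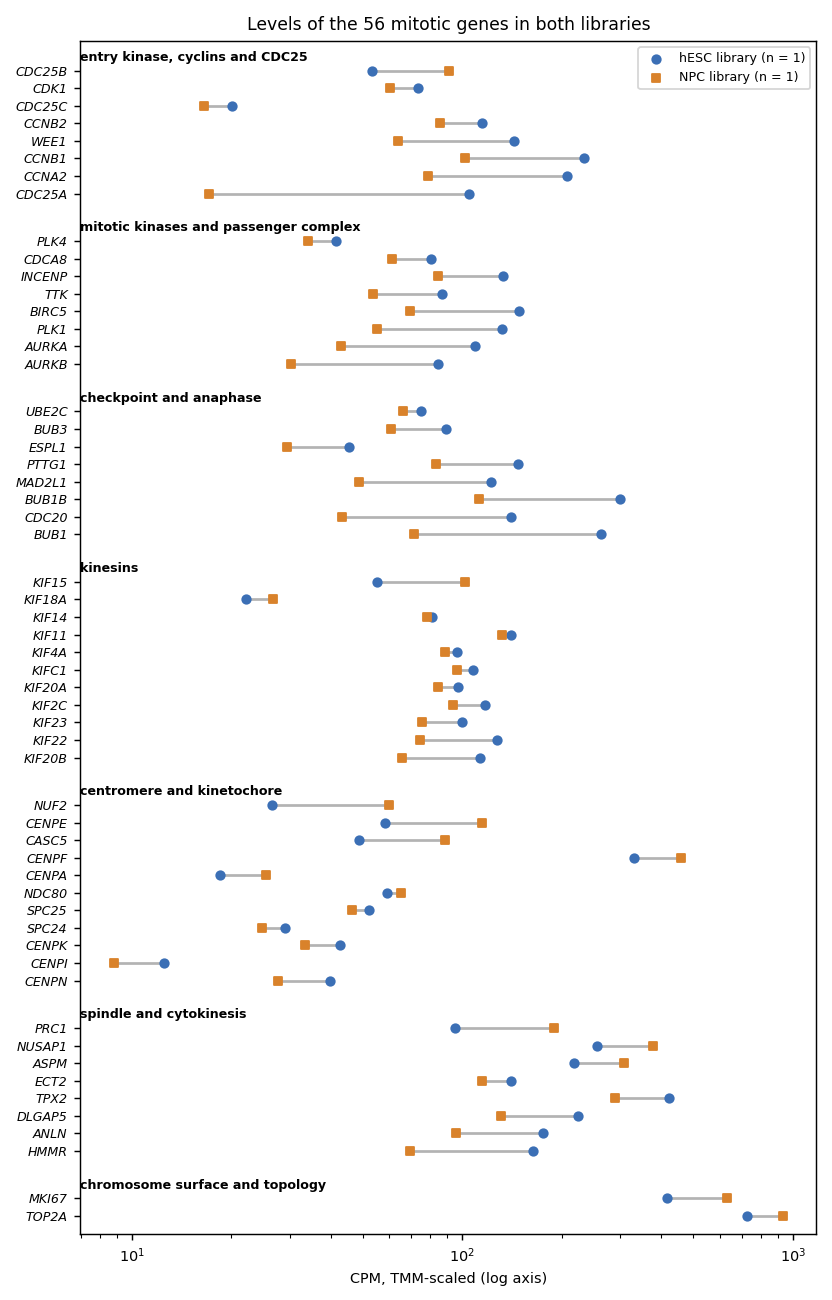
Levels of the 56 genes in CPM with TMM scaling (log axis) in the hESC library (blue circles) and the NPC library (orange squares), 1 library each, by role. The 2 points of most kinesins lie close together, while CDC25A goes from 105 to 17.1 CPM and BUB1 from 263 to 71.2 CPM.

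The CDC25 phosphatases and the B-type cyclins came apart within their own families. CDC25A, the phosphatase that also acts at the start of DNA replication, had 1824 hESC and 465 NPC reads, or 105 and 17.1 CPM. It was 6.13-fold lower (5.54 to 6.81) in the NPC library, the lowest ratio of any member. CDC25B, which acts on CDK1 at the centrosome, had 926 and 2482 reads, or 53.3 and 91.2 CPM, a ratio of 1.71 (1.59 to 1.85) that was not called. The third paralog, CDC25C, had 20.1 and 16.5 CPM.

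Ratios of reads of 2 genes within a library do not depend on scaling. CDC25B had 0.508 reads for each CDC25A read in hESC and 5.34 in NPC, a 10.5-fold difference (9.26 to 11.9, from the normal approximation on the log odds of the counts). For CDC25C over CDC25A the difference was 5.04-fold (4.24 to 5.99). Per kb, CDC25A had 27.7 and CDC25B 14.8 CPM in hESC, and 4.52 and 25.4 CPM in NPC, so their order turned round.

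Among the CDK1 partners, CCNA2, the cyclin of S phase and early mitosis, had 207 and 78.9 CPM and was 2.62-fold lower (2.48 to 2.77) in the NPC library. CCNB1, the main mitotic cyclin, had 233 and 102 CPM and was 2.30-fold lower (2.19 to 2.41). CCNB2, its paralog at the Golgi, had 115 and 85.8 CPM and was not called (1.34-fold lower, 1.26 to 1.42). Reads of CCNB2 per CCNB1 read went from 0.492 to 0.844, a 1.71-fold difference (1.59 to 1.85). WEE1, the kinase that holds CDK1 inactive, had 143 and 63.8 CPM and was 2.24-fold lower (2.11 to 2.38). CDK1 itself had 73.5 and 60.6 CPM and was not called. Scaled by library total, CDC25A alone of this role was lower, at a log2 ratio of -2.26, and CDC25B was higher, at 1.13. In GENCODE models 9.08% of the exon bases of CCNA2 are shared with EXOSC9 on the other strand, and no strand setting is given for the counts.

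The mitotic kinases were lower in part. AURKB, the Aurora kinase of the chromosomal passenger complex, had 1463 and 826 reads, or 84.2 and 30.4 CPM, and was 2.77-fold lower (2.54 to 3.02). AURKA, the Aurora kinase of centrosomes and spindle poles, had 109 and 42.9 CPM and was 2.55-fold lower (2.37 to 2.75). Their ratio to each other differed little, 1.30 AURKA reads per AURKB read in hESC and 1.41 in NPC, a difference of 1.09-fold with an interval that spans 1 (0.970 to 1.21). PLK1, the Polo kinase of mitotic entry and spindle assembly, had 132 and 55.3 CPM and was 2.39-fold lower (2.24 to 2.56). TTK, the MPS1 kinase that starts checkpoint signalling, had 86.8 and 53.5 CPM and was not called. PLK4, which controls centriole duplication, had the highest ratio of the role, with 719 and 925 reads or 41.4 and 34.0 CPM, 1.22-fold lower (1.10 to 1.34) and not called.

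The 4 subunits of the passenger complex did not share a ratio. Beside AURKB, BIRC5, which encodes survivin, had 148 and 69.2 CPM and was 2.14-fold lower (2.02 to 2.27). INCENP, the scaffold, had 133 and 84.6 CPM, and CDCA8, which encodes borealin, had 80.1 and 61.2 CPM, both uncalled. CDCA8 reads per AURKB read were 0.952 and 2.01, a 2.12-fold difference (1.89 to 2.36). None of the 8 genes of this role was called when scaled by library total, where 13.2% of all genes were lower and 27.0% higher. Their log2 ratios then lay between -1.11 for AURKB and 0.07 for PLK4.

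Of the checkpoint and anaphase genes BUB1, BUB1B, MAD2L1 and CDC20 were lower and the other 4 were not called. BUB1, a checkpoint kinase that also marks centromeric histone, had 4564 and 1937 reads, or 263 and 71.2 CPM, and was 3.69-fold lower (3.50 to 3.89). BUB1B, which encodes the checkpoint protein BUBR1, had 299 and 112 CPM and was 2.66-fold lower (2.55 to 2.79). MAD2L1, which encodes MAD2, had 122 and 48.7 CPM and was 2.49-fold lower (2.33 to 2.67). BUB3, the adaptor of BUB1 and BUBR1, had 89.3 and 60.7 CPM and was not called. BUB1 reads per BUB3 read went from 2.94 to 1.17.

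CDC20, the activator of the anaphase-promoting complex and target of the checkpoint, had 140 and 43.1 CPM and was 3.24-fold lower (3.02 to 3.48). UBE2C, the ubiquitin-conjugating enzyme of that complex, had 1304 and 1801 reads, or 82.1 and 72.4 CPM per kb, a ratio of 0.882 (0.821 to 0.948). PTTG1, which encodes securin, had 147 and 83.3 CPM, and ESPL1, the gene of separase, had 45.3 and 29.4 CPM. None of these last 3 was called. BUB1 and CDC20 were the members of this role that stayed lower with the library total, at log2 ratios of -1.53 and -1.34. Near-identical copies of PTTG1 took few reads of their own, with 5 and 1 for PTTG2 and 4 and 0 for PTTG3P.

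None of the 11 kinesins was called in either direction, against 19.8% of all measured genes called lower and 19.6% called higher. KIF20B, a motor of cytokinesis, had the lowest ratio, with 1972 and 1787 reads or 113 and 65.7 CPM, 1.73-fold lower (1.62 to 1.84). KIF22, a chromosome-arm motor, had 127 and 74.6 CPM. KIF23, the motor subunit of centralspindlin, had 100 and 75.6 CPM, and KIF2C, the microtubule depolymerase MCAK, had 117 and 93.6 CPM. KIF20A, which moves the passenger complex to the midzone, had 97.1 and 84.4 CPM.

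Of the remaining motors KIF15 stood above the others. KIFC1, a minus-end motor that focuses poles, had 108 and 96.4 CPM, and KIF4A, which binds chromosomes and PRC1, had 96.2 and 88.7 CPM. KIF11, the motor Eg5 that separates the poles, had 140 and 132 CPM, and KIF14, a motor of the midbody, had 81.2 and 78.2 CPM. KIF18A, which dampens chromosome oscillation, had 22.1 and 26.7 CPM. KIF15, which can stand in for KIF11 in spindle assembly, was the highest of the family in ratio, with 962 and 2767 reads or 55.3 and 102 CPM, a ratio of 1.84 (1.71 to 1.98). KIF15 reads per KIF11 read went from 0.395 to 0.772, a 1.95-fold difference (1.79 to 2.14). With the library total KIF15 was called higher (log2 ratio 1.23), and the kinesins' median log2 ratio turned from -0.16 to 0.19. KIF4B, a near-identical copy of KIF4A, had 6 and 9 reads.

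Of the 11 centromere and kinetochore genes 10 were not called. The 1 called higher (9.09%) and none lower stand against 19.6% and 19.8% of all measured genes. The inner subunits CENPN, CENPI and CENPK, which sit on centromeric chromatin, had 39.8 and 27.6, 12.5 and 8.82, and 42.5 and 33.3 CPM in the hESC and NPC libraries. CENPN had the lowest ratio of the role, with 691 and 751 reads, 1.44-fold lower (1.30 to 1.60) and not called. CENPA, the histone of that chromatin, had 18.5 and 25.4 CPM. In GENCODE models 12.8% of the exon bases of CENPN are shared with CMC2 on the other strand. For CENPA 6.96% are shared with SLC35F6 on the same strand, which had 289 and 642 reads.

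NUF2, a subunit of the microtubule-binding NDC80 complex, had 462 and 1634 reads, or 26.6 and 60.1 CPM, or 2.26 times the hESC level (2.04 to 2.51). It was the 1 member called higher, and with size factors from DESeq2 its call was lost at a log2 ratio of 1.14. The other subunits, NDC80 (59.0 and 65.1 CPM), SPC24 (29.1 and 24.7 CPM) and SPC25 (52.1 and 46.4 CPM), were not called. NUF2 reads per NDC80 read were 0.450 and 0.922, a 2.05-fold difference (1.80 to 2.33), although the proteins bind as a pair. SPC25 reads per SPC24 read were 1.79 and 1.88, a difference of 1.05-fold with an interval that spans 1 (0.909 to 1.21).

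The large outer proteins had higher values in the NPC library. CENPE, a kinesin of the outer plate that carries chromosomes to the equator, had 58.3 and 115 CPM, a ratio of 1.97 (1.83 to 2.11). CASC5, now called KNL1, the platform on which BUB1 and BUB3 dock, had 48.7 and 88.4 CPM, a ratio of 1.82 (1.68 to 1.97). CENPF, a corona protein, had 331 and 458 CPM. None was called with TMM, and with the library total CENPE, CASC5 and NUF2 were called higher. All 3 of CENPE, CASC5 and CENPF have transcripts over 8 kb, and the ratios of long transcripts are described below. With the length trend of all measured genes removed, the log2 ratio of CENPE went from 0.98 to 0.57. That of CASC5 went from 0.86 to 0.43 and that of CENPF from 0.47 to 0.03.

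Spindle and cytokinesis genes went both ways. HMMR, a spindle pole protein gene, had 2858 and 1890 reads, or 164 and 69.5 CPM, and was 2.37-fold lower (2.23 to 2.51). ANLN, which encodes the contractile ring scaffold anillin, had 175 and 95.9 CPM, and DLGAP5, whose product stabilises spindle fibres, had 223 and 131 CPM. TPX2, the activator of AURKA, had 423 and 289 CPM, and ECT2, which switches on the contractile ring, had 140 and 115 CPM. Only HMMR among these 5 was called. HMMR was not called by library total, at a log2 ratio of -0.89.

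PRC1, which bundles microtubules in the central spindle, had 1646 and 5141 reads, or 94.7 and 189 CPM, a ratio whose interval ran from 1.89 to 2.11, so that its near bound missed 2-fold. ASPM, a spindle pole protein whose loss causes microcephaly, had 217 and 308 CPM. NUSAP1, which binds spindle microtubules near chromosomes, had 255 and 378 CPM. PRC1 reads per read of KIF4A, its partner in the midzone, were 0.984 and 2.13, a 2.16-fold difference (1.99 to 2.35). The antisense row PRC1-AS1 had 341 and 1102 reads and shares 7.35% of the exon bases of PRC1, so without a stated strand these reads cannot be told apart. Other protein-coding models in GENCODE share 57.6% of the exon bases of PRC1 and 62.2% of those of NUSAP1 on the same strand, so both counts are uncertain if such models were counted. Overlaps of 8.78% to 13.0% with other models also touch CDC25C, PLK1, BUB1B, KIF22 and KIFC1.

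The proliferation markers proper had higher CPM in the NPC library and were not called. MKI67, which coats mitotic chromosomes, had 7214 and 17211 reads, or 415 and 633 CPM, a ratio of 1.52 (1.48 to 1.57). TOP2A, which untangles sister chromatids, had 12662 and 25393 reads, or 728 and 933 CPM, a ratio of 1.28 (1.25 to 1.31). Both have long transcripts, whose ratios are described below. With the length trend of all measured genes removed, the log2 ratio of MKI67 went from 0.61 to 0.12 and that of TOP2A from 0.36 to 0.07. TOP2A reads per BUB1 read went from 2.77 to 13.1, a 4.73-fold difference with a lower bound of 4.46. In all, 19 pairs of genes were compared in this way, of which the CDC25, cyclin B and Aurora pairs are paralogs of the families listed and the others were chosen after the values were seen.

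Longer transcripts tended to have higher ratios, and the relation was weak both among all genes and among the members, where it was uneven. Across the 56 members Spearman's rho of log2 ratio with length was 0.189 and Pearson's r with log2 length 0.250, against 0.205 and 0.162 across 13234 measured genes with a length. These describe genes of the same 2 libraries. The 9 members with transcripts of 6 kb or more had a median log2 ratio of 0.47 with none called lower. Of 2745 such genes 351 were lower, with a median of 0.29. The 28 members of 2 to 4 kb had a median of -0.52, with 8 lower. Of 4935 genes of that length 1065 were lower, with a median of -0.20. The 10 members of 4 to 6 kb had a median of -0.20, against 0.09 for 3386 genes. The 9 members under 2 kb went against the trend, with a median of -0.28 that lay above that of the 2 to 4 kb members, against -0.61 for 2168 genes of that length. The regulators had a median transcript length of 3.19 kb and the structural genes 3.59 kb. With the length trend of all measured genes removed, their median log2 ratios were -0.96 and -0.04. CCNB1, AURKB and BIRC5 were then no longer called, and KIF20B was called lower.

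**Figure D3:**
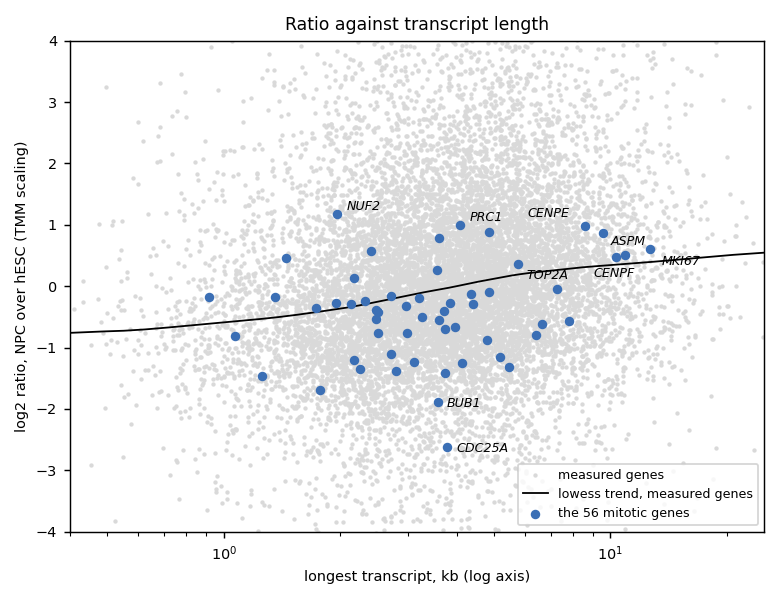
Log2 ratio, NPC over hESC, with TMM scaling against the longest transcript in kb (log axis) for the 56 genes (blue), all measured genes with a length (grey) and their lowess trend (line); ratios beyond 4 either way are not shown. MKI67, CENPF and ASPM lie near the trend at the long end, while CDC25A (-2.62) and BUB1 (-1.88) lie far below it and NUF2 (1.18) above it.

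Most of the other genes of mitosis were not called, 95 of 118. Of 119 listed genes 118 were measured, and 15 were lower (12.7%, against 19.8% of all measured genes) and 8 higher (6.78%, against 19.6%), with a median log2 ratio of -0.32. By library total, 9 were lower (7.63%, against 13.2%) and 17 higher (14.4%, against 27.0%), with a median of 0.04. Reads can be shared between ANAPC1 and its copy ANAPC1P1, which had 68 and 29 reads of its own.

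**Figure D4:**
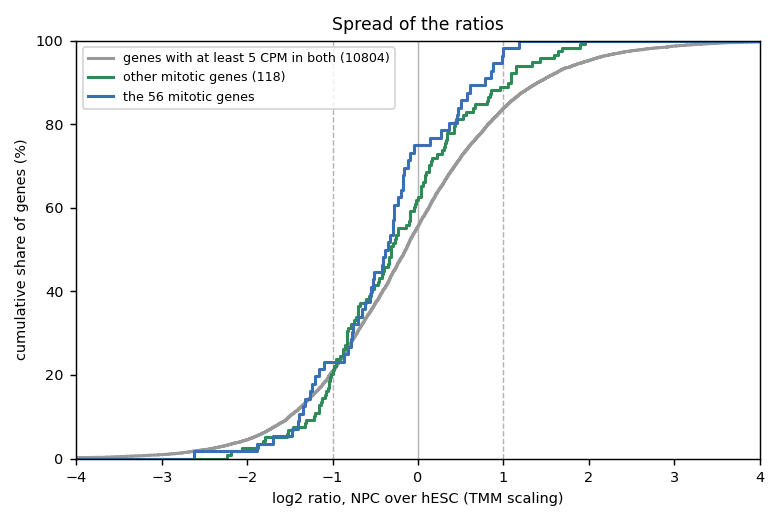
Cumulative share of genes (%) against the log2 ratio, NPC over hESC, with TMM scaling, for the 56 genes (blue), 118 other mitotic genes (green) and 10804 genes with at least 5 CPM in both libraries (grey); dashed lines mark 2-fold. The blue curve reaches 100% at 1.18, the ratio of NUF2, while the grey curve extends further on both sides.

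In the anaphase-promoting complex 3 of 17 genes were lower (17.6%) and 1 higher (5.88%). Of all measured genes 19.8% were lower and 19.6% higher. ANAPC1, its largest subunit gene, had 273 and 57.6 CPM and was 4.73-fold lower (4.47 to 5.01), and the chain-extending enzyme gene UBE2S had 299 and 71.6 CPM and was 4.18-fold lower (3.97 to 4.41). FZR1, the activator that replaces CDC20 as mitosis ends, had 21.2 and 66.2 CPM and was 3.12-fold higher (2.79 to 3.51). Among 8 condensin genes 1 was lower (12.5%), NCAPG2, with 191 and 77.1 CPM. NCAPD3 (114 and 54.8 CPM) and SMC4 (179 and 372 CPM) were not called.

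Of 16 cohesin genes 12 were not called, 2 were lower and 2 higher (12.5% each, against 19.8% and 19.6% of all measured genes). CDCA5, which encodes sororin, had 75.1 and 26.0 CPM and was 2.89-fold lower (2.63 to 3.17), and the acetyltransferase gene ESCO1 had 72.9 and 31.3 CPM. MAU2, a subunit of the cohesin loader, had 16.9 and 42.6 CPM and was 2.53-fold higher (2.22 to 2.89). Among 29 other measured centromere and kinetochore genes 3 were lower (10.3%) and none higher. SKA3 had 82.8 and 23.5 CPM and MIS18A, which helps to load CENPA, had 53.8 and 15.5 CPM, while CENPC at 17.3 and 36.8 CPM had the highest ratio and was not called.

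Of 24 other spindle, centriole and cytokinesis genes 1 was lower (4.17%) and 3 higher (12.5%). The importin gene KPNA2 had 614 and 245 CPM and was 2.50-fold lower (2.42 to 2.58), and TACC3 had 256 and 126 CPM and was not called. KIF3A, a motor of cilia, had 28.9 and 92.5 CPM and was 3.20-fold higher (2.91 to 3.53). Among 24 genes of G2/M control and its transcription 5 were lower (20.8%, near the 19.8% of all measured genes) and 2 higher (8.33%). MYBL2, which encodes the MuvB partner B-MYB, had 432 and 94.8 CPM and was 4.56-fold lower (4.36 to 4.77). CKS1B had 77.2 and 21.1 CPM, and RBL2, the gene of the pocket protein p130, had 22.4 and 86.8 CPM and was 3.87-fold higher (3.48 to 4.32).

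Pluripotency and progenitor markers followed the labels, and markers of neurons and stroma moved with the same contrast. The hESC library held 19686728 reads and the NPC library 24065750, and a gene at 5 CPM rested on 86.9 and 136 reads. All 8 pluripotency markers were lower in the NPC library, where they lay between 0.368 and 22.9 CPM (summed 8355 and 37.4 CPM). Of 9 measured progenitor markers 7 were higher (summed 988 and 5775 CPM), with SOX2 and NES not called. Of 13 neuron markers 10 were higher and 1 lower (399 and 1958 CPM), and of 8 measured stromal markers 6 were higher and 1 lower (669 and 1162 CPM). SLC17A6, a marker of glutamatergic neurons, had 0 reads in the hESC library. The part of these cell types in the mitotic genes' ratios was not tested. Reads of mouse MS5 cells cannot be told from human ones in these counts.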

How the data were processed

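For each of 2 libraries the authors deposited whole-number counts by gene symbol, with no normalization. Per the labels' protocols, 1.3 µg of total RNA per library went into a SMARTER mRNA-Seq kit. TopHat, edgeR and the build hg19 are named per the submitters' processing notes, with no role or version. Not given in the sources used here: the counting tool, strand setting, annotation and how reads with several matches were counted. Each table held 25737 rows, all with a symbol, and keeping 1 row per symbol set aside 0.0878% of hESC and 0.107% of NPC reads.

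Counts were scaled over the whole table with TMM factors (0.884 for hESC, 1.132 for NPC) from edgeR 4.0.16 in R 4.3.3. Log2 ratios had 0.5 added to each count. Intervals are exact 95% Clopper-Pearson intervals on the NPC share of a gene's reads. Spread between cultures is not in them, and PCR copies of a molecule count as separate reads. The interval code was tested on simulated counts. No test between conditions was made, and no label gives a batch.

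Transcript lengths are the longest per symbol in GENCODE 29, found for all 56 members and 97.8% of measured genes. Exon overlaps come from the same annotation. Promoters are RefSeq's (GRCh38.p14). Alternatives were the library total, DESeq2 1.42.0 and upper-quartile factors, filters of 1 and 20 CPM or none, bounds of 1.5-fold and 4-fold, the point ratio alone, summed rows and removal of the length trend (lowess in statsmodels 0.14.6, fraction 0.5). Python 3.11.15 was used with scipy 1.17.1, pandas 2.3.3 and numpy 2.4.6.

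The members, their roles, the lists of other genes and the alternatives were chosen with earlier results of these data known. All members are given. By rule, reads, levels and interval are given for the highest and lowest ratio of each role and for any member called higher, and of the other mitotic genes the 2 lowest and the highest of each list are named. Intervals of further members called lower were added after their values were seen.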

Additional observations from a re-analysis of the deposited data

How the results depend on the processing

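The counts of calls depend on the scale between the libraries. With the library total 3 members were lower (CDC25A, BUB1 and CDC20) and 6 higher (CDC25B, KIF15, CENPE, NUF2, CASC5 and PRC1), in place of 13 and 1; the median log2 ratio of members was -0.01 in place of -0.37, and 9 other mitotic genes were lower in place of 15. With DESeq2 size factors 13 members were lower and 0 higher, and NUF2 missed the bound. A bound of 4-fold left 1 member lower (CDC25A, 1.79% of members against 7.26% of all genes) and 0 higher (against 9.13%), and 2 other mitotic genes lower. A bound of 1.5-fold gave 6 members higher (10.7%, against 27.7% of all genes) and 19 lower (33.9%, near the 30.6% of all genes), and 41 other mitotic genes lower. The point ratio alone gave 24 other mitotic genes lower and the same 13 and 1 members. Removal of the length trend gave 11 members lower, of which 10 were among the 13, and 1 higher. CDC25A was called lower under all 11 alternatives, BUB1 and CDC20 under 10 (all but the 4-fold bound), and no called member changed sign. CENPI fell below the filter of 20 CPM. The least covered member, CENPI, had 218 and 240 reads, and with 1 library in each group the spread between cultures is unknown.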

Other observations

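Among partners that compete for the same complex, the balance of reads differed between the libraries, and these pairs were picked after their values were seen. CDC20 and FZR1 encode the activators of the anaphase-promoting complex for mitosis and for its end and the following gap phase. There were 6.60 CDC20 reads per FZR1 read in hESC and 0.651 in NPC. RBL2 and MYBL2 encode p130 and B-MYB, which join the MuvB complex in its repressing and its activating form, and the CHR is the site that this complex binds. RBL2 had 0.0519 reads per MYBL2 read in hESC and 0.916 in NPC, a 17.6-fold difference (15.7 to 19.8).

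The enzymes that feed ubiquitin to the anaphase-promoting complex parted too. UBE2C, which starts chains, had 0.251 reads per read of UBE2S, which extends them, in hESC and 0.925 in NPC, a 3.69-fold difference (3.38 to 4.03). Of the cohesin subunits STAG1 and STAG2, which take the same place in the ring, STAG1 had 0.140 reads per STAG2 read in hESC and 0.321 in NPC (2.29-fold, 2.10 to 2.51). In condensin, SMC4 reads per read of its partner SMC2 went from 1.39 to 3.07. These ratios do not depend on scaling, and their intervals cover counting error only.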
